A study of Mus musculus with 7 samples.

Results

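Cell adhesion genes and integrins were examined in retinal pigment epithelium (RPE) with and without Dicer1: Adam23, Nrcam, Madcam1, Icam2, Pecam1, Hapln1, Itga3, Itga7, Itgb3 and Itgb4. These 10 genes were chosen by name, with their differences between the groups already known. Every probe set (a group of array probes read as 1 value, here for a stretch of a gene and not the whole gene) that the platform annotation gave to 1 of these symbols and no other was used. They came to 223 of the 53644 probe sets with 1 gene symbol, and to 10 of 5017 genes. Because the members were chosen on this contrast, their differences are given as a description, with standard errors and no p-value.

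The series held 7 Affymetrix arrays of messenger RNA from RPE dissected from mouse eyes at postnatal day 5, with 4 control arrays and 3 Dicer1-deficient arrays. Dicer1 makes mature microRNAs by cutting their precursors, and the series asked what its loss does to the RNA of this tissue. The deficient group was Dicer1loxP/loxP;Dct-Cre, in which Cre is driven by the promoter of dopachrome tautomerase. That promoter is active in pigment cells, melanocytes as well as RPE. The pups of all 7 arrays came from a Dicer1 flox/+ Dct cre parent and a Dicer1 flox/flox parent, so that by this mating each carried at least 1 floxed allele, and the labels name the control group only as control RPE, without its Cre status. The labels do not state that the arrays were separate animals, and the p-values given for other genes measure only the spread between these arrays, which may be technical.

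Adhesion receptors hold the RPE to the basement membrane below it and to the photoreceptor outer segments above it. Integrins are pairs of an alpha and a beta subunit that bind matrix proteins such as laminin, fibronectin and vitronectin, and in the RPE the pair made by Itgav and Itgb5 is known for the binding of shed outer segments. Members of the immunoglobulin superfamily bind one another or integrins across cell contacts, and some of them are known mainly from blood vessels.

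The deposited values were log2 signals from 2.71 to 13.5, with a median of 6.22 and a lower quartile of 4.63. Dicer1 itself had a log2 signal of 10.27, 10.65, 10.69 and 10.88 in the controls and 10.53, 10.71 and 10.47 in the deficient arrays at its brightest probe set. The groups overlapped (log2 difference -0.05, SE 0.15; limma, Benjamini-Hochberg adjusted p = 0.961), 14 of its 28 probe sets were lower, and a probe set outside the floxed part, which the labels do not place, checks nothing. Control 4 stood apart from the other arrays, with a median of 6.05 against 6.22 to 6.26 and correlations with them of 0.942 to 0.951 over all probe sets, against 0.971 to 0.988 among the others. Of all probe sets, 5.87% read over 1 log2 unit below the other controls in this array, so values without it stand beside the results it moves. Counts of probe sets with groups apart without it have no share over all probe sets beside them, because none was computed. Of 19 genes listed as RPE markers, 7 were measured, and Rpe65, Tyr and Mitf were not analysed here. The mean log2 signal of these 7 was 11.53 to 11.70 in the controls and 11.04 to 11.24 in the deficient arrays. Pmel, a melanosome matrix gene, differed least, with 12.66 ± 0.04 (SD, n = 4) and 12.61 ± 0.05 (SD, n = 3). The others had log2 differences of -0.23 (Serpinf1), -0.37 (Rdh10), -0.38 (Rdh5), -0.43 (Sulf1), -0.60 (Mlph) and -1.19 (Kcnj13). In whole tissue, fewer cells of a type and less RNA per cell cannot be told apart.

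Promoter sequences were at hand for 5 of the 10 members (Adam23, Nrcam, Madcam1, Itga3 and Hapln1), from RefSeq on GRCm38.p6. Those of the most reduced pair, Adam23 and Madcam1, and of the 1 increased member, Itga3, are shown to let the upstream DNA of genes that moved together and apart be compared. Each is the gene's own strand, 5′ to 3′, and stops before the outermost start that the RefSeq gene table gives. Capitals mark matches to the motifs searched, on either strand. Adam23 lies on the plus strand at chr1:63445641-63445716, Madcam1 on the plus strand at chr10:79664309-79664558, and Itga3 on the minus strand at chr11:95076845-95076964.
Adam23: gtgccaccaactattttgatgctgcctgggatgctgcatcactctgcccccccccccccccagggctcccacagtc
Madcam1: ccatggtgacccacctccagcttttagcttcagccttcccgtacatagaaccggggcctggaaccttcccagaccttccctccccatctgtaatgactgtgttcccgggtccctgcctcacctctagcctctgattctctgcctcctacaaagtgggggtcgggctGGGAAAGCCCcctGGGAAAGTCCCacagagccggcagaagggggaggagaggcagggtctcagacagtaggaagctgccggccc
Itga3: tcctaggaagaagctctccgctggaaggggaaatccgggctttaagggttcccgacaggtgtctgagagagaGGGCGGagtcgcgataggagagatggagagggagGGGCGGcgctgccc

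The motifs searched on both strands of the 250 bases before each RefSeq start were GGGA and CC with any 4 bases between them (NF-kB), TAATCC (the core bound by OTX factors), CACGTG and CATGTG (E-boxes that MITF can bind), TATAAA (the TATA box) and GGGCGG (the GC box of SP1). The Madcam1 window held GGGAAAGCCC 84 bases and GGGAAAGTCC 71 bases before the start, and a reverse-strand match 70 bases before it overlapped the latter. Of 32851 promoter windows of the same length, 17.6% held the NF-kB motif at least once and 2.79% at 2 or more positions. Overlapping matches on the 2 strands, as at 71 and 70 here, count as 2 positions. The 2.79% is therefore not the share of windows with 2 separate sites. The Itga3 window held GGGCGG 178, 144 and 35 bases before its start, the last of these outside the stretch shown, and 32.7% of all windows held this motif at least once and 16.7% at 2 or more positions. A second RefSeq start of Itga3, inside the gene, had a window with 1 match each to the NF-kB motif (165 bases before the start), CATGTG (221, on the reverse strand) and GGGCGG (246). An NF-kB match was thus present for Madcam1 and at this inner start of Itga3, but not in the first Itga3 window. The use of either Itga3 start was not measured. The windows of Adam23 and Hapln1 held 0 matches to the motifs, and that of Nrcam held 1 NF-kB match and 1 GC box. The windows of Adam23 and Madcam1, whose signals were lowered alike, shared no searched motif. Only 76 of the 250 bases of the Adam23 window lie before the outermost start of the gene, against 250 for Madcam1. The number was 151 for Nrcam, 143 for Hapln1 and 120 for the first Itga3 window. The Nrcam NF-kB match (47 bases before the start used) lies inside the gene, and its GC box (104) runs onto the outermost start. The lack of a match in Adam23 or Hapln1 therefore says little about the DNA upstream of those outermost starts. A match describes these letters only, and no binding was measured.

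At the brightest probe set of each gene, 9 of the 10 members had less signal in the deficient arrays and Itga3 had more. The median log2 difference was -0.31, against -0.01 over all 5017 genes, of which 2602 were lower. Adam23, Madcam1, Hapln1 and Nrcam were lower and Itga3 was higher past the limma threshold (adjusted p of 0.05 over all genes), which 2.33% of all genes passed (0.917% lower, 1.42% higher). The groups did not overlap for 6 members (these and Itga7; 5 lower and 1 higher), against 16.3% of all genes (7.02% lower, 9.27% higher). Both shares are given as a description, since the members were picked on this contrast.

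**Figure D1:**
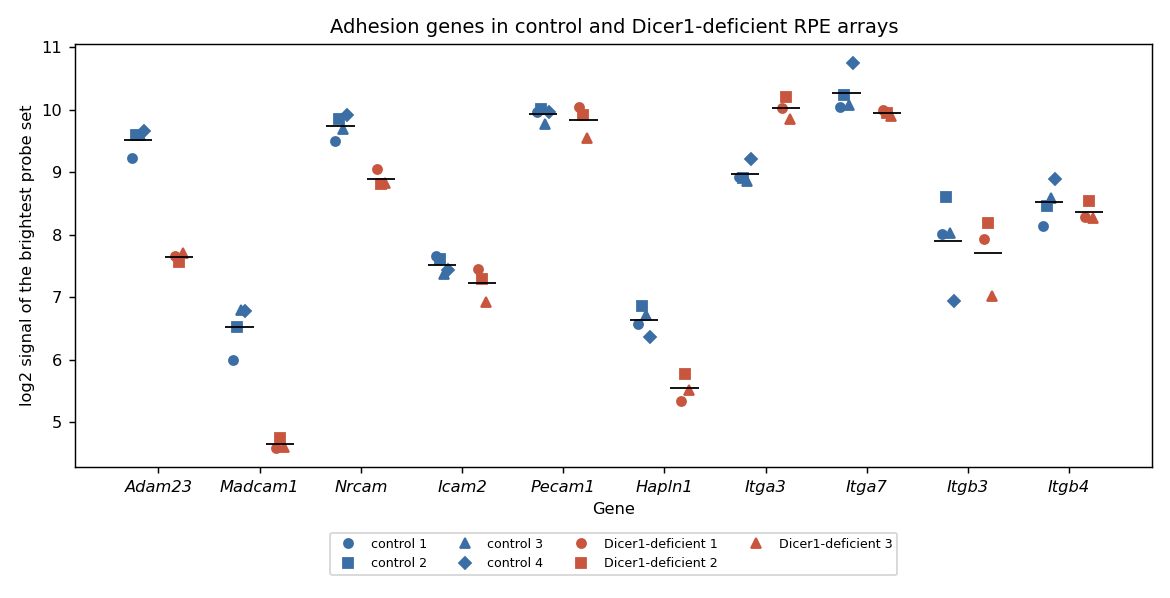
The log2 signal of each array (points; blue control, red Dicer1-deficient) is plotted for the 10 genes at their brightest probe sets, with lines at the group means. Adam23, Madcam1, Nrcam, Hapln1 and Itga3 show clear gaps between the groups, while Icam2, Pecam1, Itgb3 and Itgb4 overlap, and levels are not comparable between genes.

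Among the adhesion molecules of the cell surface, Adam23 and Madcam1 had the largest differences, both of -1.88 at the brightest probe set. Adam23 encodes a member of the ADAM family without protease activity, which binds LGI proteins and integrins at cell contacts and is best known from neurons. Its brightest probe set read 9.23, 9.60, 9.60 and 9.66 in the controls and 7.66, 7.56 and 7.70 in the deficient arrays. Control 1 was the lowest control, yet it lay above every deficient array by more than the range of either group. The means were 9.52 ± 0.19 (SD, n = 4) and 7.64 ± 0.07 (SD, n = 3), a log2 difference of -1.88 (SE 0.13), or 3.68-fold lower.

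The difference ran along nearly the whole of Adam23. Of its 31 probe sets on chromosome 1, 30 were lower in the deficient arrays, 26 of them by 1 log2 unit or more. In 24 the groups did not overlap, against 6.62% of all probe sets that were apart and lower. The median of the 31 was -1.64 and the range -3.35 to 0.22. The largest difference was at the 20th probe set in order of identifier, where the controls read 8.33, 7.91, 8.01 and 7.26 and the deficient arrays 4.96, 4.29 and 4.31. There the deficient values lay close to the lower quartile of the table. The 1 probe set that was not lower was the first in that order, with 5.40, 4.38, 4.82 and 5.30 against 5.93, 4.69 and 4.97, overlapping groups of dim values. In 6 of the 31, control 4 read over 1 log2 unit below the other controls, and without this array the groups did not overlap in 29, with a median of -1.87. With fewer control arrays groups are apart more readily, and no share over all probe sets was computed for that setting.

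**Figure D2:**
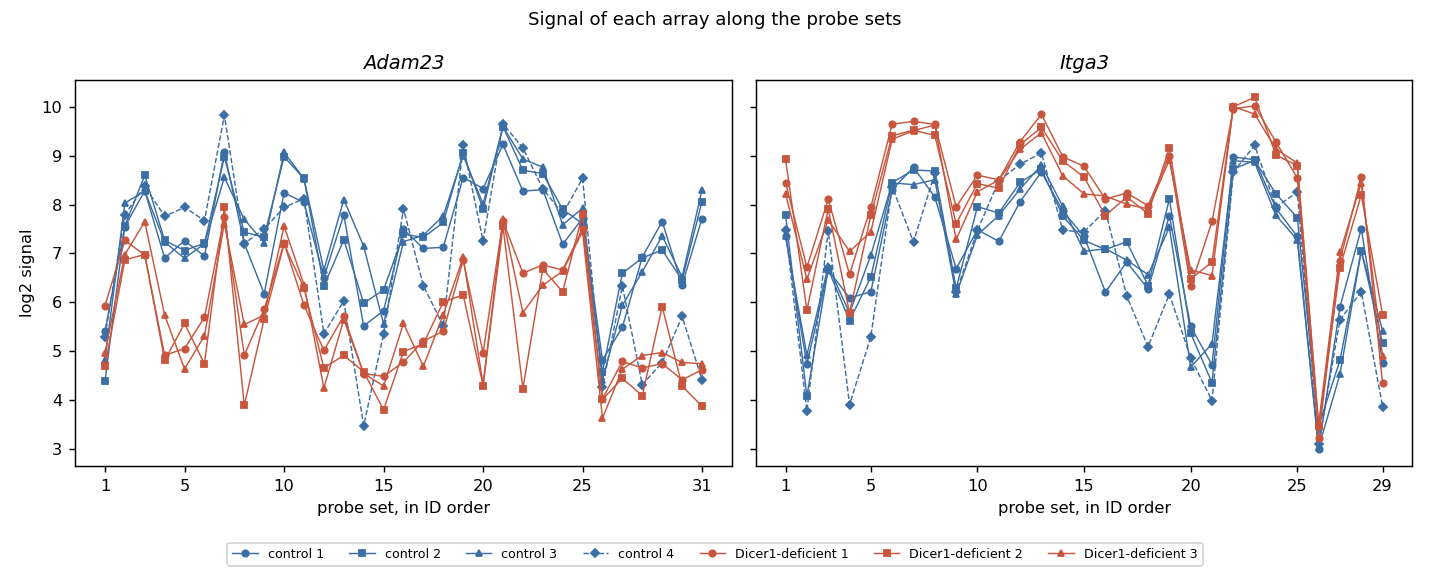
The log2 signal of every array is drawn along the 31 probe sets of Adam23 and the 29 of Itga3, in order of probe set identifier (blue control, control 4 dashed; red Dicer1-deficient). Deficient arrays lie below the controls along Adam23 and above them along Itga3, and control 4 leaves the other controls at some probe sets of both.

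Nrcam, a neural adhesion molecule of the L1 family that binds ankyrins inside the cell and contactins outside it, was lower by less. Its brightest probe set read 9.50, 9.84, 9.69 and 9.91 in the controls and 9.05, 8.81 and 8.82 in the deficient arrays. The lowest control stayed above the highest deficient array. The log2 difference was -0.84 (SE 0.13), from 9.74 ± 0.18 (SD, n = 4) to 8.90 ± 0.14 (SD, n = 3), or 1.79-fold lower. Of its 36 probe sets on chromosome 12, 33 were lower. The groups were apart in 15, against 6.62% of all probe sets that were apart and lower. The median of the 36 was -0.69, with a range of -1.40 to 0.47. Over the 22 probe sets whose control mean was at or above the median of the table the median difference was -0.80, and over the 14 dimmer ones it was -0.27. The limma call of Nrcam was lost when control 2 or 3 or any 1 of the deficient arrays was left out, with differences of -0.92 to -0.78 over all arrays left out in turn, and also on the median of probe sets (-0.57).

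Madcam1, the addressin of mucosal vessels to which lymphocytes bind through the integrin of Itga4 and Itgb7, was a dim signal that became dimmer. The controls read 5.996, 6.52, 6.80 and 6.77 and the deficient arrays 4.59, 4.74 and 4.61. The deficient arrays lay close together, at the lower quartile of all values, and control 1 was the lowest of the controls. The log2 difference was -1.88 (SE 0.20), from 6.52 ± 0.37 (SD, n = 4) to 4.65 ± 0.08 (SD, n = 3). All 6 probe sets on chromosome 10 were lower (-2.16 to -0.17). In 4 the groups did not overlap, against 6.62% of all probe sets that were apart and lower. On the mean of probe sets the difference was -1.19, with a deficient mean of 4.43, below the lower quartile.

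Icam2 and Pecam1, known from endothelium, differed little. Icam2, a ligand of leukocyte integrins, read 7.66, 7.60, 7.37 and 7.44 in the controls and 7.44, 7.29 and 6.92 in the deficient arrays. Deficient array 1 lay among the controls (log2 difference -0.30, SE 0.15), although all 5 probe sets were lower, by -0.45 to -0.23. The groups were apart in 1 of the 5, or in 2 without control 4. With all arrays 6.62% of all probe sets were apart and lower. Pecam1, a contact protein of endothelial junctions, read 9.96, 10.01, 9.77 and 9.96 against 10.04, 9.91 and 9.54, with a log2 difference of -0.10 (SE 0.14). The highest and the lowest of these 7 values were both deficient arrays. Of the 19 Pecam1 probe sets 12 were lower and in 0 the groups were apart, but control 4 read over 1 log2 unit below the other controls in 5 (26.3%). Without it 17 were lower and 4 apart, with a median of -0.13 in place of -0.05. With fewer control arrays groups are apart more readily. No share over all probe sets was computed without control 4, so this shift cannot be told from one of the whole table.

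The endothelial markers measured outside the members gave no call. Of 20 endothelial markers 5 were measured, Icam2 and Pecam1 among them. Sox17 differed by 0.00, Ramp2 by -0.24 and Clec14a by -0.04 on the log2 scale. The mean of these 3 was 8.90 to 9.05 in the controls and 8.70 to 9.19 in the deficient arrays. These ranges overlapped between the groups. Madcam1 is known from vessels too, and the part of endothelial cells in its values was not tested.

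Hapln1 encodes the link protein that fastens proteoglycans to hyaluronan in the matrix. Its brightest probe set read 6.58, 6.86, 6.71 and 6.36 in the controls and 5.34, 5.76 and 5.51 in the deficient arrays. The groups were apart, with the deficient values below the median of the table. The log2 difference was -1.09 (SE 0.15), from 6.63 ± 0.21 (SD, n = 4) to 5.54 ± 0.21 (SD, n = 3), or 2.12-fold lower. All 10 probe sets on chromosome 13 were lower (median -0.43, range -1.16 to -0.06), but 9 of them had a control mean below the median of the table. The 5 in which the groups did not overlap were the last 5 in order of identifier, and the control means of the other 5 ran from 3.45 to 4.88. Of all probe sets 6.62% were apart and lower. On the mean of probe sets the difference was -0.54, and the limma call at the brightest probe set was lost without deficient array 1 or 3.

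**Figure D3:**
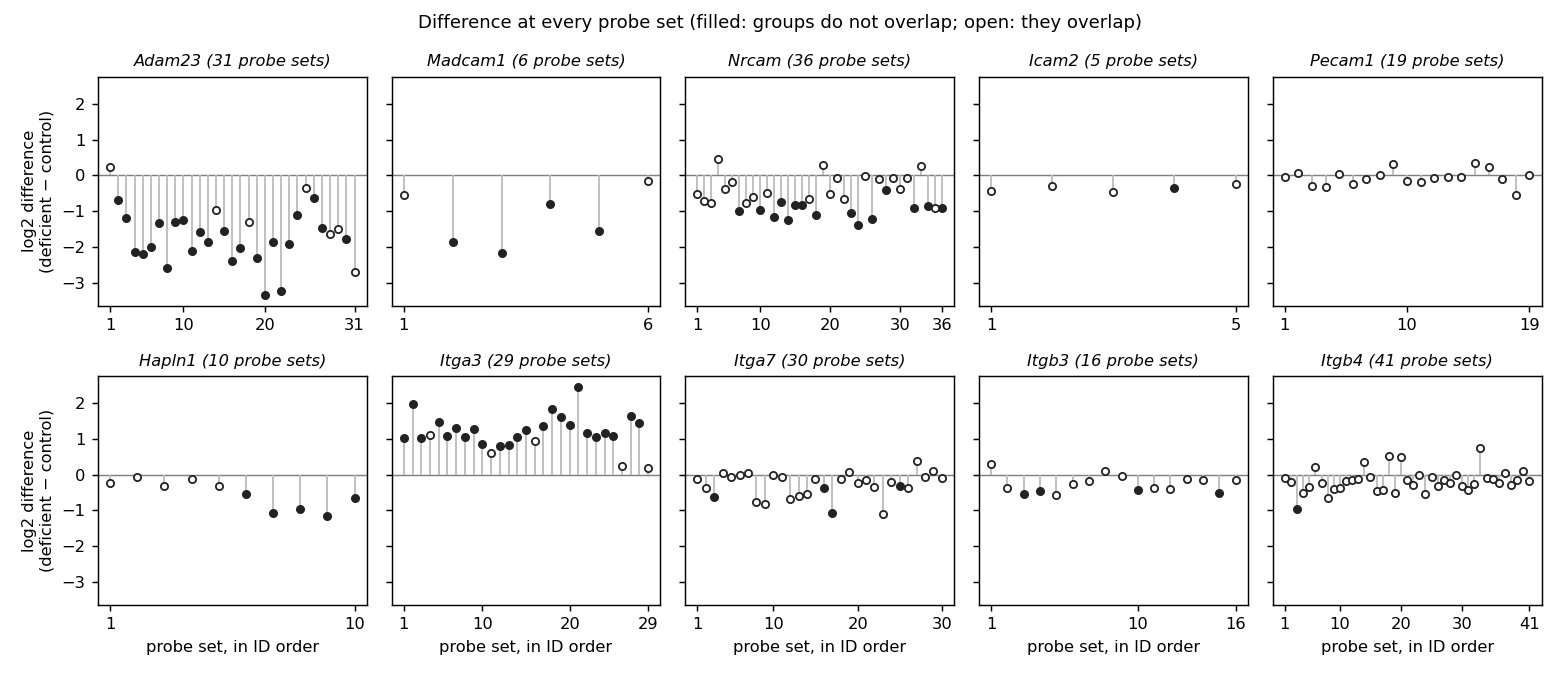
The log2 difference (Dicer1-deficient minus control) is shown at each of the 223 probe sets in order of identifier, filled where the groups do not overlap and open where they do. Adam23 lies below 0 at 30 of 31 probe sets and Itga3 above 0 at 29 of 29, while Itgb4 and Pecam1 stay nearer to 0, on both sides of it.

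Of the integrin subunits, Itga3 was the 1 member with more signal in the deficient arrays. Its product pairs with that of Itgb1 as a laminin receptor of epithelia. The brightest probe set read 8.92, 8.91, 8.86 and 9.21 in the controls and 10.02, 10.20 and 9.85 in the deficient arrays. Control 4 was the highest control, and it too lay below every deficient array. The means were 8.97 ± 0.16 (SD, n = 4) and 10.02 ± 0.17 (SD, n = 3), a log2 difference of 1.05 (SE 0.13), or 2.07-fold higher.

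All 29 probe sets of Itga3 on chromosome 11 were higher in the deficient arrays, 22 of them by 1 log2 unit or more. The groups were apart in 24, against 7.35% of all probe sets that were apart and higher. The median of the 29 was 1.12, with a range of 0.19 to 2.46. The largest difference was at the 21st in order of identifier, where the controls read 4.72, 4.35, 5.15 and 3.98 and the deficient arrays 7.66, 6.82 and 6.55. That probe set was dim in every control and above the median of the table in every deficient array. Without control 4 the groups were apart in 26 of 29, 1 probe set was lower and the median was 1.16. Groups of fewer arrays are apart more readily, and no share over all probe sets was computed there. The limma call of Itga3 at the brightest probe set was lost without deficient array 1, with differences of 0.96 to 1.14 over all arrays left out in turn.

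Itga7, which also pairs with Itgb1 and is the laminin receptor of muscle, differed less. Its brightest probe set read 10.04, 10.24, 10.07 and 10.74 in the controls and 9.996, 9.95 and 9.89 in the deficient arrays. The nearest arrays of the groups nearly touched, and the gene did not pass the limma threshold (log2 difference -0.33, SE 0.18). Without control 4, the highest array, the difference was -0.17. Of its 30 probe sets 25 were lower and in 4 the groups were apart (median -0.18, range -1.09 to 0.39), or in 7 without control 4. With all arrays 6.62% of all probe sets were apart and lower, and no share was computed without control 4. The mean of 7 extraocular muscle markers was 8.74 to 9.11 in the controls and 8.66 to 9.45 in the deficient arrays. These ranges overlapped, and their part in the Itga7 values was not tested.

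The beta subunits among the members gave overlapping groups. Itgb3, the partner of Itgav and, in platelets, of Itga2b, read 8.01, 8.60, 8.02 and 6.94 in the controls and 7.93, 8.18 and 7.01 in the deficient arrays. Control 4 and deficient array 3 were both about 1 log2 unit below the other arrays (log2 difference -0.19, SE 0.41). The difference was -0.51 without control 4 and 0.16 without deficient array 3. Of its 16 probe sets on chromosome 11, 14 were lower and 4 apart (median -0.31), against 6.62% of all probe sets that were apart and lower. Of the platelet markers Itga2b and Gp1ba, the first read 6.95 ± 0.53 (SD, n = 4) and 7.02 ± 0.24 (SD, n = 3), and the second 4.52 ± 0.14 and 4.49 ± 0.01, below the lower quartile of the table.

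Itgb4, the long-tailed partner of Itga6 in hemidesmosomes, which anchor epithelia to laminin, read 8.14, 8.46, 8.59 and 8.89 in the controls and 8.27, 8.54 and 8.27 in the deficient arrays. All deficient values lay within the range of the controls (log2 difference -0.16, SE 0.18, and -0.04 without control 4). Of its 41 probe sets 34 were lower, by small amounts (median -0.18, range -0.96 to 0.76), and in 1 the groups were apart, or in 2 without control 4. With all arrays 6.62% of all probe sets were apart and lower, and no share was computed without control 4. Itga3 and Itgb4, both laminin receptor subunits of epithelia, thus had different values in these arrays, 2.07-fold higher and overlapping, a contrast that was not tested.

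Over all 223 probe sets of the members, 22 were lower and 11 higher past the limma threshold over all probe sets, 33 in all, against 0.406%, 0.656% and 1.06% of all probe sets. Of the lower ones 15 belonged to Adam23, 3 each to Nrcam and Madcam1 and 1 to Hapln1, and the higher ones all belonged to Itga3. The groups were apart in 82 of the 223 (58 lower, 24 higher), against 14% of all probe sets (6.62% lower, 7.35% higher). The members contributed unequally to that count, since 24 each came from Adam23 and Itga3 and 0 from Pecam1. Both counts are given as a description, since the members were picked on this contrast.

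Markers of 3 of the 9 cell type lists had means that were apart between the groups in the direction of the lowered members. The RPE list was 1 of them, with the ranges given above. Kcnj13, the inward rectifier potassium channel of the RPE apical membrane, fell by 1.19 on the log2 scale from 11.18 ± 0.16 to 9.99 ± 0.21 (limma, adjusted p = 0.00510), the 1 call among the 7 RPE markers. The list mean of 3 melanocyte and Schwann cell genes (Pax3, Erbb3 and Cdh19) was 8.83 to 9.26 in the controls and 8.33 to 8.47 in the deficient arrays, and that of 9 fibroblast and sclera genes 11.59 to 11.74 and 11.23 to 11.47. These 2 lists were also apart, with 0 of their genes past the limma threshold (Pax3 -0.90, adjusted p = 0.0639; Erbb3 -0.59, adjusted p = 0.0669). The fibroblast genes were uneven: the collagen genes Col1a1 (-0.01) and Col3a1 (0.01) and the proteoglycan gene Dcn (-0.14) were nearly level, and Omd (-0.92), Fmod (-0.60) and Prelp (-0.50), named after their values were seen, differed most. The means of the remaining lists overlapped between the groups, those of endothelium and muscle as given above: leukocyte 7.999 to 8.69 against 8.10 to 8.20, photoreceptor 4.94 to 6.17 against 5.85 to 6.64, lens and surface epithelium 6.34 to 7.57 against 6.82 to 8.13, and platelet (Itga2b and Gp1ba) 5.47 to 6.23 against 5.63 to 5.88. No marker of these lists passed. The part of any of these cells in the values of Adam23, Nrcam, Madcam1, Hapln1 and Itga3 was not tested.

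The genes whose arrays most resembled those of Adam23 were sought among 4629 genes with named products, by the root mean square difference of log2 signals centred on each gene's mean over the 7 arrays. They were Ankfn1 (0.145), Madcam1 (0.153) and Nsg2 (0.241). Hapln1 came 14th (0.458) and Nrcam 18th (0.522) in the same order. For Itga3 the nearest were Tbc1d30 (0.0998), Galc (0.116) and Hkdc1 (0.148). These values describe likeness over 7 arrays in 2 groups, where any genes with a like difference resemble one another.

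Of 221 genes on lists of adhesion families, 59 were measured and 49 were not members. At the brightest probe set 30 of the 49 had less signal in the deficient arrays, with a median log2 difference of -0.05. Past the limma threshold 1 of the 49 was lower and 0 were higher, where 2.33% of all genes passed (0.917% lower, 1.42% higher). The gene that passed was Itgb8, the integrin subunit that pairs with Itgav to activate latent TGF-beta. It read 11.61, 11.93, 11.78 and 11.93 in the controls and 10.63, 10.58 and 10.28 in the deficient arrays. The groups were apart by nearly 1 log2 unit. The log2 difference was -1.31 (SE 0.13; limma, adjusted p = 0.00304), from 11.81 ± 0.15 (SD, n = 4) to 10.50 ± 0.19 (SD, n = 3). All 14 probe sets of Itgb8 on chromosome 12 were lower with groups apart, by -1.85 to -1.14, and 12 of them passed the limma threshold over all probe sets.

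The other measured integrin subunits did not pass. Itgae, of intraepithelial lymphocytes, differed by 0.12 (limma, adjusted p = 0.915), Itga2b by 0.07 (0.972) and Itgb2, of leukocytes, by 0.04 (0.976), each with a sign that turned when 1 array was left out. The remaining alpha and beta subunits on the list, among them Itgav, Itgb1, Itgb5 and Itga6, were not analysed here.

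Of 10 other immunoglobulin superfamily genes 0 passed, with a median of -0.10. Nfasc, an L1 family relative of Nrcam, differed by 0.51 (limma, adjusted p = 0.341) at its brightest probe set and by -0.12 on the mean of its probe sets. Igsf8 differed by -0.40 (adjusted p = 0.281) and Emb by -0.35 (adjusted p = 0.464) at the brightest probe sets in the limma fit. None of the 3 other ADAM genes passed, with Adam11, a relative of Adam23 without protease activity, at -0.36 (adjusted p = 0.681), the sheddase Adam17 at 0.03 and Adam19 at -0.05. Of 7 cadherins and selectins 0 passed, with Cdh20 at 0.53 (limma, adjusted p = 0.109), Pcdh15 at 0.88 (0.228) and Cdh19 at -0.34 (0.665).

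Among the partners of Hapln1, 3 genes were measured and 0 passed: Stab2, a hyaluronan clearance receptor, at -0.60, Hmmr at -0.19 and Habp4 at 0.31 (limma, adjusted p = 0.607, 0.892 and 0.230). The proteoglycans it fastens, such as those of Vcan and Acan, were not analysed here. Of 13 integrin ligands of the matrix 0 passed at the brightest probe set, 10 were lower and the median was -0.17. Fn1, the fibronectin gene, differed by -0.22, Lama4, a laminin alpha chain gene, by -0.28 and Fbln5, of elastic fibres, by -0.30 (limma, adjusted p = 0.327, 0.257 and 0.278). Of 9 adaptors and focal adhesion genes 0 passed, with Tns3 at 0.34, Itgb1bp1 at -0.28 and Ank3 at 0.23 (limma, adjusted p = 0.194, 0.360 and 0.413).

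**Figure D4:**
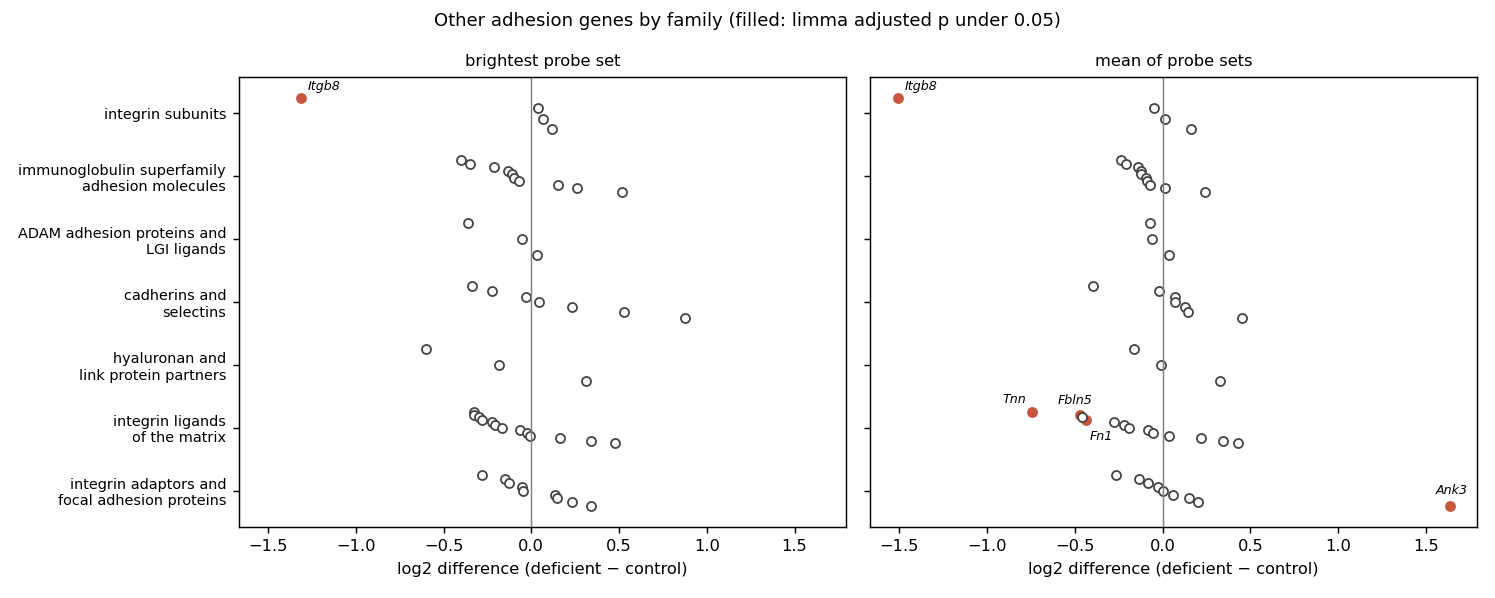
Each point is 1 of the 49 adhesion genes outside the members, by family, placed by its log2 difference at the brightest probe set (left) or on the mean of its probe sets (right), and filled where the limma adjusted p is under 0.05. Itgb8 is filled in both panels, and Ank3 stands out to the right in the panel of means alone.

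On the mean of all probe sets of a gene, 4 of the 49 were lower and 1 was higher past the limma threshold, where 5.86% of all genes passed (2.83% lower, 3.03% higher). Itgb8 fell by 1.51 (limma, adjusted p = 6.76e-05), Fbln5 by 0.47 (0.0134), Fn1 by 0.44 (0.0256) and Tnn, a tenascin gene named after its value was seen, by 0.75 (0.0305) on the log2 scale. At its brightest probe set Tnn differed by -0.17 with overlapping groups (limma, adjusted p = 0.883). There it ran from -0.34 to 0.05 with 1 array left out. The gene that passed as higher was Ank3, ankyrin-G, the membrane adaptor to which Nrcam and Nfasc bind. It went from 5.85 ± 0.25 (SD, n = 4) to 7.49 ± 0.06 (SD, n = 3), a log2 difference of 1.64 (SE 0.13; limma, adjusted p = 0.000134).

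Ank3 thus gave different values at its brightest probe set and over the gene. The brightest of its 54 probe sets read 9.92, 9.92, 10.0045 and 10.22 in the controls and 10.14, 10.33 and 10.27 in the deficient arrays. Control 4 lay among the deficient arrays there. All but 1 of the 54 were higher in the deficient arrays, the groups were apart in 46 and 30 passed the limma threshold over all probe sets, with a median of 1.71 and a range of -0.23 to 3.05. Nrcam, which binds this adaptor, was lower at 33 of its 36 probe sets in the same arrays.

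**Figure D5:**
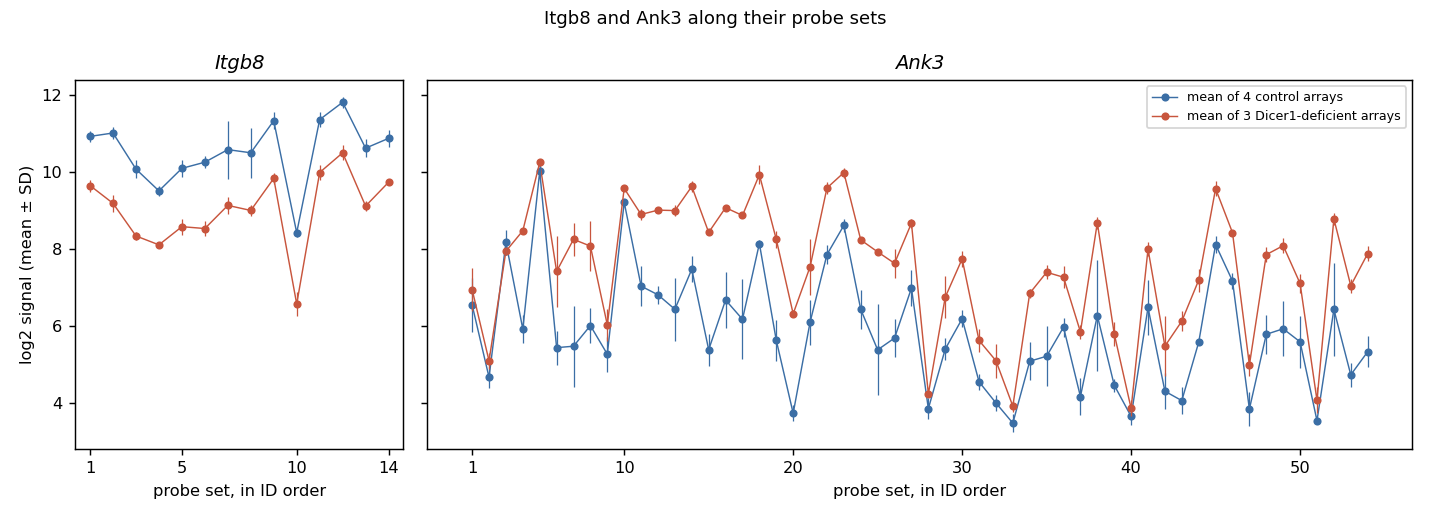
Group means of log2 signal (± SD; blue 4 control arrays, red 3 Dicer1-deficient arrays) are drawn along the 14 probe sets of Itgb8 and the 54 of Ank3, in order of identifier. Itgb8 is lower at all 14, and Ank3 is higher at all but 1 of its 54 with a small gap at its brightest probe set, where both means exceed 10.

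On the mean of probe sets the same 5 members passed the limma threshold. The log2 differences were -1.68 for Adam23, -1.19 for Madcam1, -0.60 for Nrcam, -0.54 for Hapln1 and 1.19 for Itga3 (SE 0.08 to 0.14). The other members were at -0.35 (Icam2), -0.29 (Itga7), -0.26 (Itgb3), -0.17 (Itgb4) and -0.06 (Pecam1), each with overlapping groups. Without control 4, Icam2 (-0.43) and Itga7 (-0.34) passed as well, in a setting where 17% of all genes passed (10.3% lower, 6.74% higher).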

How the data were processed

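Per the labels' protocols, RNA of dissected RPE was extracted, given a biotin label and hybridized to Affymetrix arrays. The deposited log2 signals of the 7 arrays form 1 table. RMA and Partek 6.6 are named in the submitters' processing notes without the steps they served. That the scale is log2 was inferred from the range of the values. Not given in the sources used here are the probes' genome build, any filter and detection calls. RMA usually normalizes arrays to a common distribution, which would remove differences in total RNA.

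The table held 65535 probe sets, a count equal to the row limit of old spreadsheet programs, so it may be cut off, and every share, median and adjusted p over all genes or probe sets rests on the genes it lists. The platform annotation gave 1 gene symbol to 53644 of them and several to 877, and 11014 are unnamed here. Symbols were updated through the RefSeq gene table of GRCm38.p6 (4321 current, 698 updated, 13 unmatched), which gave chromosomes. Of the 5017 genes, 4918 lie on chromosomes 1, 10, 11, 12 and 13, and other genes were not analysed here. The number of arrays limits the precision.

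Each gene was represented by its brightest probe set, that of highest mean over the 7 arrays, without a filter. Groups were compared with limma 3.58.1 in R 4.3.3 (lmFit, eBayes; two-sided p adjusted by Benjamini-Hochberg over all genes or all probe sets, threshold 0.05; 2.82 prior and 5 residual degrees of freedom). A difference is Dicer1-deficient minus control. Figures were drawn in Python 3.11.15 with matplotlib 3.10.9. On data simulated for this comparison with 5017 genes and 200 changed genes (20 simulations), the code recovered 34.4%, 76.7%, 96.5% and 99.2% of genes changed by 0.5, 1, 2 and 3 on the log2 scale, with 5.52% of calls false.

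The members and gene lists were chosen with earlier results of these data known. Named are all members, each list gene past the threshold with up to 3 further genes per list of smallest p, up to 4 markers per cell type with the highest signal and, for Adam23 and Itga3, the 3 genes most like them. Kcnj13, Omd, Fmod, Prelp and Tnn are named outside these rules, because of their values, and Rdh5 and Mlph to complete the measured RPE markers. Alternatives were the mean or median of probe sets, quantile normalization again, median centring, a filter on dim values, a variance trend, robust moderation, array weights, other thresholds and the omission of each array. Omitting control 4 from the mean of probe sets was an alternative added after seeing the data. Probe sets are ordered by identifier, and their positions within genes were not used here.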

Additional observations from a re-analysis of the deposited data

Results flagged for a closer look

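Among 43 sets of control values examined, 4 held 1 array far from the other controls by Dixon's criterion, which flags about 5% of such sets by chance. At the brightest probe set of Adam23, control 1 read 9.23 and the other controls 9.60 to 9.66. At that of Itga3, control 4 read 9.21 and the others 8.86 to 8.92. At that of Fbln5, control 4 read 12.04 and the others 11.69 to 11.75. The median signal of control 4 over all probe sets was 6.05, against 6.25 to 6.26 in controls 1 to 3.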

How the results depend on the processing

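The sign of Adam23, Nrcam, Madcam1, Hapln1, Itga3, Itga7, Itgb4 and Icam2 held under every alternative run. Itgb3 and Pecam1 turned sign under some: Itgb3 ran from -0.51 to 0.16 and Pecam1 from -0.20 to 0.05 with 1 array left out, and Pecam1 was 0.06 on the median of probe sets. Adam23 and Madcam1 passed the limma threshold with each of the 7 arrays left out. The members were picked on this contrast in these same arrays. Calls of members kept or lost with 1 array left out are therefore a description and no support. The filter on dim values removed Madcam1 and Hapln1, which gave no value there. The limma test called 117 genes, 294 on the mean and 176 on the median of probe sets, 385 with array weights, 33 to 260 with 1 array left out (260 without control 4), 37 and 213 at thresholds of 0.01 and 0.10, and 853 when control 4 was also left out of the mean of probe sets, an alternative chosen after seeing the data. It called 570 probe sets, 2067 with array weights, 144 to 1236 with 1 array left out (1236 without control 4), and 167 and 1039 at those thresholds. Of the 49 adhesion genes outside the members it called 1, where 2.33% of all genes passed, and 5 on the mean of probe sets, where 5.86% passed. It called 4 on the median of probe sets, 3 with array weights and 1 to 3 with 1 array left out. On the mean without control 4 it called 16 of the 49, where 17% of all genes passed. With 1 array left out, limma's adjusted p of Itgb8 ran from 0.00411 to 0.0186.

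Some differences of adhesion genes that did not pass turned sign. On the mean of probe sets these were Itgae (-0.051) and Nfasc (-0.12). On the median they were Nfasc (-0.21), Stab2 (0.038) and Hmmr (0.0087), and with array weights Adam19 (0.014). On the mean without control 4 they were Nfasc (-0.092), Adam11 (0.00072), Adam17 (-0.027) and Stab2 (0.11). With 1 array left out Itgae ran from -0.077 to 0.22, Itga2b from -0.079 to 0.32, Itgb2 from -0.090 to 0.25, Adam19 from -0.13 to 0.063 and Adam17 from -0.0067 to 0.11. The causes were not tested. Dim signals in the deficient arrays, at the lower quartile of the table for Madcam1 and below its median for Hapln1, limit what a difference can show there. No paired analysis was possible because the replicate numbers were given in accession order and pair no arrays.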
